A study of Mus musculus with 2 samples.

Results

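The TOX family consists of 4 transcription factor genes, Tox, Tox2, Tox3 and Tox4, whose proteins share 1 HMG box, a DNA-binding domain. On the expression arrays of sorted luminal mammary epithelial cells, every probe set that the platform annotation pairs with one of these genes alone was taken. This gave 6 of the 29338 probe sets in the value table, or 3 of 13869 genes: 3 probe sets for Tox, 2 for Tox2 and 1 for Tox3. Tox4 had 0 probe sets in the table and is not analysed here. The family was selected on the difference between these same arrays, with the large Tox2 and Tox3 values known, so its values are a description and no test was made.

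The cells came from 3 virgin female mice, aged 5 months and pooled, on an FVB background. These Tbx3+/Venus mice carry the gene of the fluorescent protein Venus in the start codon of one Tbx3 allele, which places Venus under the control of the Tbx3 locus and prevents expression of Tbx3 from that allele. Both populations are thus heterozygous for Tbx3, and no array of wildtype cells is analysed here. After dead cells, CD45+ lymphocytes and stromal cells had been excluded, luminal cells were identified by CD24 and CD49f, and 200000 cells with high Venus signal (luminal VenusHigh) and 200000 with low or no Venus signal (luminal VenusLow) were sorted. Each population was measured on 1 Affymetrix GeneChip array of the mouse genome, on which a probe set reads 1 or several transcripts, so there are no replicates, no p-values and no error between animals, and the number of arrays limits the precision.

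HMG-box proteins bend DNA and, in the TOX family, are thought to bind it by its structure more than by a fixed sequence. Tox is best known from the thymus, where it is needed for the development of CD4 T cells, and from exhausted T cells. Tox2 has been studied in follicular helper T cells and natural killer cells. Tox3 encodes a co-activator that works with CREB and CITED1, lies at a locus linked to breast cancer risk in human studies, and has been described in estrogen receptor-positive mammary epithelial cells. Tox4 is part of a nuclear protein phosphatase complex.

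Both the floor of the signal and the rows of the table bear on each value. Signals were floored at 10, which is 3.32 on the log2 scale, so a probe set at the floor in VenusLow cells has only a lower bound on its difference, and one at the floor on both arrays has no difference. Of the table's probe sets, 12968 had a higher value in VenusHigh than in VenusLow cells, 16370 lay at the floor in both populations, and 0 were lower in VenusHigh cells. A probe set that is lower in VenusHigh cells is therefore not analysed here, and a difference in the table cannot be below 0. In RNA from a sorted pool, fewer cells of a type and less RNA per cell cannot be told apart. Probe sets and genes whose signal was at least 100 in the higher array are called bright, which is a rule of size and not a test of detection.

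Tox2 and Tox3 were higher in luminal VenusHigh than in luminal VenusLow cells, and Tox was at the floor in both. Tox2 had a log2 signal of 11.49 in VenusHigh cells and 5.67 in VenusLow cells on probe set 1440156_s_at, a difference of 5.81 on the log2 scale or 56.3-fold. These correspond to linear signals of 2870 and 51.0. The VenusLow signal lay above the floor but below a signal of 100, and raising the floor to 100 left a log2 difference of 4.84. Tox2 was thus at least 4-fold higher with either floor.

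The other Tox2 probe set did not show this difference. On 1457757_at the log2 signal was 3.78 in VenusHigh cells and at the floor in VenusLow cells, a difference of at least 0.46 on the log2 scale. Its linear signal of 13.8 in VenusHigh cells was close to the floor of 10, so it has no settled direction. Its difference was -0.20 after median centring of the arrays and 0.21 after quantile normalization. Centring also shifts values at the floor, so the negative value gives no direction. The differences on the Tox2 probe sets lay 5.36 log2 units apart, where the bright probe sets of one gene differed with a pooled SD of 0.31 over 1062 genes. That SD leaves out probe sets lower in VenusHigh cells and dim ones, so it may be too small. Of the 194 genes with several probe sets in the table of which at least 1 was 4-fold higher, 144 (74.2%) had a probe set that was not bright. The Tox2 call rests on the first probe set alone. The ending _s_at marks a probe set whose probes may match more than one transcript, and without such probe sets Tox2 would not be counted as higher. Which Tox2 transcripts each probe set detects was not tested.

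Tox3 had 1 probe set, 1436600_at, with a log2 signal of 8.18 in VenusHigh cells and 4.86 in VenusLow cells. The difference was 3.32 on the log2 scale, or 9.96-fold, between linear signals of 290 and 29.1. The VenusLow signal is near the floor, and how large the difference is depends on it: with the floor at 32 it was 3.18 and with the floor at 100 it was 1.54, which is below 4-fold. No other probe set of Tox3 in the table could be set beside it.

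All 3 probe sets of Tox lay at the floor in both populations: 1425483_at, 1425484_at and 1442039_at each had a signal of 10 in VenusHigh cells and 10 in VenusLow cells. No difference can be given for Tox, and a signal at the floor does not show that the transcript was absent.

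**Figure D1:**
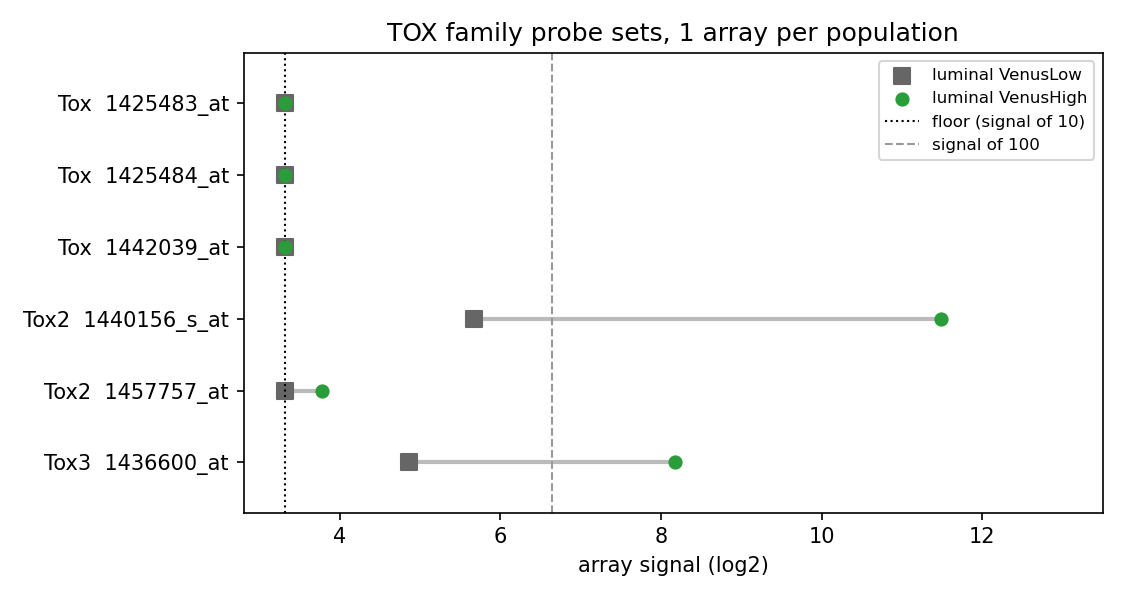
Array signal (log2, horizontal axis) of the 6 TOX family probe sets in luminal VenusHigh cells (green circles) and luminal VenusLow cells (grey squares), with no replicates. Dotted and dashed lines stand for signals of 10 (the floor) and 100. The 1440156_s_at probe set of Tox2 spans 5.67 to 11.49, that of Tox3 4.86 to 8.18, and the 3 of Tox lie at the floor.

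Counting as higher a bright probe set with a log2 difference of at least 2, 2 of the 6 TOX family probe sets (33.3%) were higher in VenusHigh cells. Over all probe sets in the table the share was 1.79%, or 526 of 29338, and over the 5889 bright ones it was 8.93%. Counted by gene, with each gene read on the probe set that was brightest on average, 2 of the 3 TOX genes in the table were higher, beside 330 of 13869 genes (2.38%) and 8.58% of the 3847 bright genes. Since the family was chosen for these differences, nothing is read from its shares. With the floor at 100, 169 genes in the whole table were at least 4-fold higher, Tox2 among them and Tox3 not. Among the 5779 bright probe sets above the floor on both arrays, the Tox2 difference was number 30 from the top and the Tox3 difference number 162. The median log2 difference of the bright probe sets was 0.48.

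**Figure D2:**
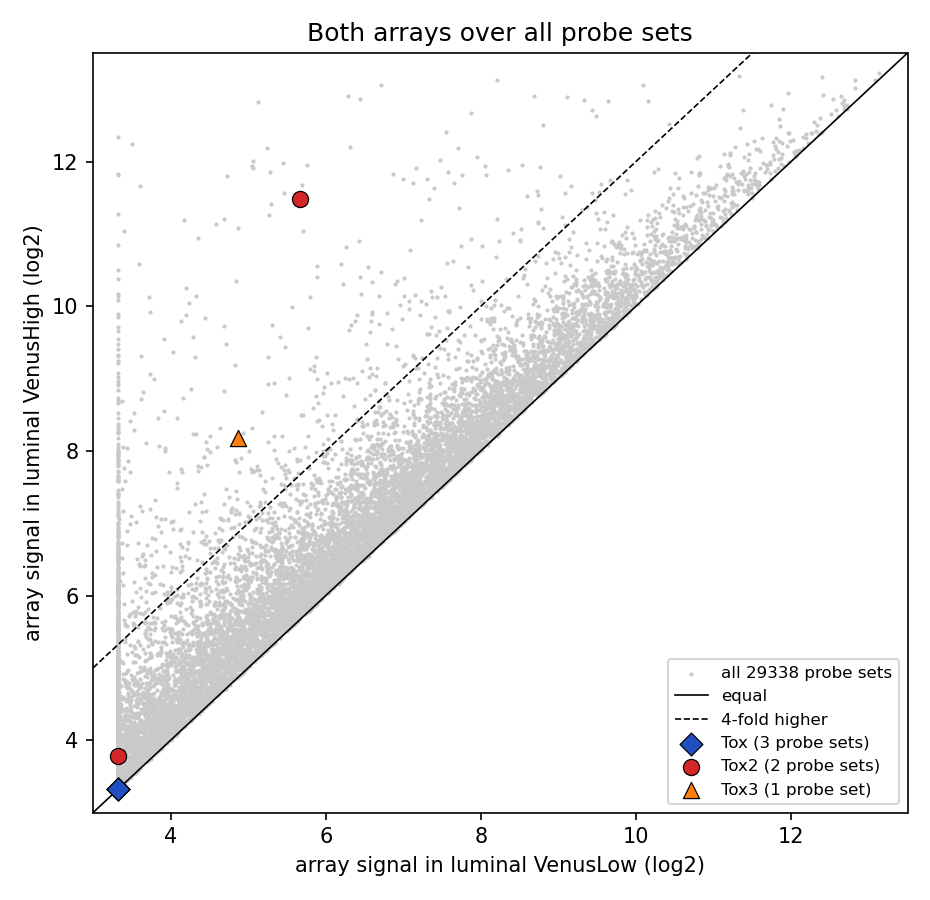
Array signal of all 29338 probe sets in luminal VenusLow cells (log2, horizontal axis) and luminal VenusHigh cells (log2, vertical axis), 1 array per population, with the TOX family probe sets marked by gene. The solid line marks equal signals and the dashed line a 4-fold higher signal in VenusHigh cells; no point lies below the solid line, 1 Tox2 point and the Tox3 point lie above the dashed line, and the 3 Tox points coincide at the floor.

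Every TOX protein has an HMG box, and so do the SOX factors, the LEF and TCF factors and several chromatin proteins. Of 41 other HMG-box genes listed, the table held 30, of which 14 were at the floor on both arrays, 10 were above it but not bright, and 6 were bright. Of the 6, 0 passed the 4-fold rule and 0 were 2-fold higher in VenusHigh cells, beside 8.58% and 21.6% of all bright genes, and with so few genes nothing is read from a count of 0. Their median log2 difference was 0.10, beside 0.46 over all 3847 bright genes, but 0.39 when each gene was read as the median over its probe sets. Cic, a repressor of genes induced by receptor tyrosine kinase signaling, had log2 signals of 7.39 in VenusHigh and 7.04 in VenusLow cells. Tfam, which packages mitochondrial DNA, had 7.78 and 7.47. Sox9, a factor of luminal progenitors, had 10.03 and 9.90. The differences of these 3, the largest of the 6, were 0.35, 0.31 and 0.13. The median of the 6 was -0.55 after median centring. That shift comes from a table without probe sets lower in VenusHigh cells, so the negative value gives no direction. A direction is not settled for any of the 6. Among the dim ones, chosen after their values were seen, Sox12 had 6.06 and 4.68 and Hmg20b had 5.25 and 4.06. The other 11 genes, Tcf7, Tcf7l1 and Tcf7l2 among them, are not analysed here and may be lower in VenusHigh cells. Whether the TOX family differs from the other HMG-box genes was not tested.

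**Figure D3:**
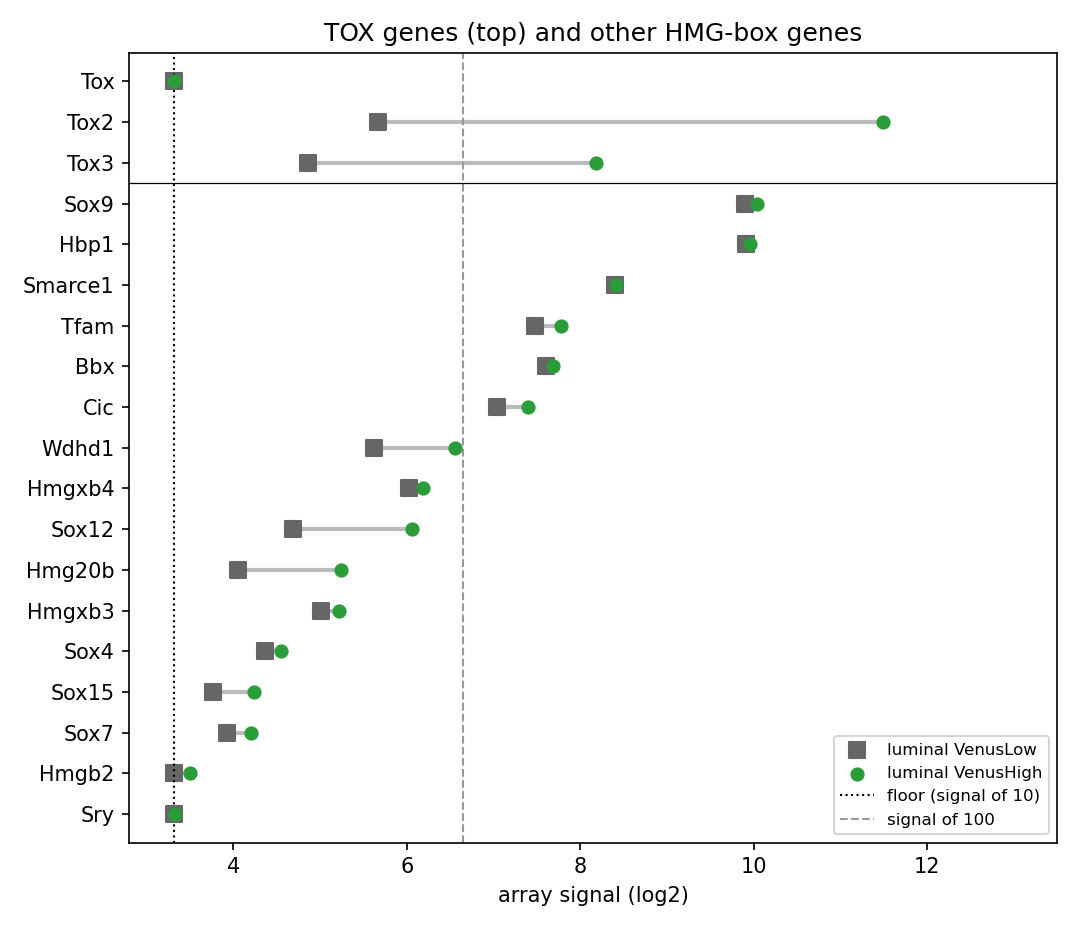
Array signal (log2, horizontal axis) of the 3 TOX genes (above the horizontal line) and of the other HMG-box genes above the floor (below it), each on its brightest probe set, in luminal VenusHigh cells (green circles) and luminal VenusLow cells (grey squares). Tox2 and Tox3, chosen for their differences, span more than 2 log2 units. The 6 other HMG-box genes to the right of the dashed line at a signal of 100 differ by at most 0.35. Among the dim ones to its left, the largest differences are 1.38 (Sox12) and 1.19 (Hmg20b).

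Known partners of the TOX proteins were taken next. Of 11 genes of CREB, its co-activators and the CITED family, which include the partners of Tox3, the table held 7, 3 of them bright, and 1 passed the 4-fold rule (background 2.38% of all genes). This was Cited1, a co-activator of estrogen receptor-dependent transcription, at the floor in VenusLow cells and at 11.28 on the log2 scale in VenusHigh cells, a difference of at least 7.95, or 4.63 with the floor at 100. The histone acetyltransferase gene Ep300 had 8.97 and 8.50, and Creb1 itself had 6.91 and 6.59. Crebbp, Cited2, Atf1 and Crtc3 are not analysed here. For the phosphatase complex of Tox4, 1 of 5 genes was in the table, the catalytic subunit gene Ppp1ca, with 10.92 and 10.63.

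In T cells, calcineurin and the NFAT factors it activates induce Tox, together with the NR4A factors. Of 13 genes of this pathway the table held 11, with 3 at the floor on both arrays and 5 bright. The 4-fold rule was passed by 0 of the 5 and a 2-fold rule by 2, beside 8.58% and 21.6% of all bright genes, or 2.38% and 5.99% of all genes in the table, so with 5 genes nothing is read from these counts. Rcan1, an inhibitor of calcineurin that NFAT induces, had 10.73 and 8.99 on the log2 scale and a difference of 1.74. Nr4a1, an orphan nuclear receptor, had 11.50 and 10.43, a difference of 1.07. Nfatc3 had 7.45 and 7.06. With median centring Rcan1 and Nr4a1 each lose 0.66 of their difference. Tox was at the floor in both populations beside these values.

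Markers of the sort and of the cell types were read on the same scale. The table holds no probe set lower in VenusHigh cells, and the lists were chosen with earlier results known. They are therefore no independent check of the sort. Of 12 hormone-sensing genes the table held 9, and 8 passed the 4-fold rule, beside 2.38% of all genes and 8.58% of bright genes. The median log2 difference of the 8 was 5.39. The rule was not passed by Tnfsf11, for which neither population gave a signal above the floor. Prlr, Ly6a and Areg have no probe set in the table that is paired with them alone, so nothing is read for them. A marker lower in VenusHigh cells could not have entered these counts. The largest differences were those of Cited1, of the progesterone receptor gene Pgr, with 11.93 and 5.05, and of Prom1. Tbx3, whose locus drives the reporter, had 8.72 and 3.62. Of 9 alveolar genes, 0 were in the table. Of 6 genes of luminal cells in general it held 4, all bright, with a median log2 difference of 0.48. The keratin gene Krt19 differed by 0.98 on the log2 scale, Cd24a, which encodes the CD24 of the sort, by 0.78, the E-cadherin gene Cdh1 by 0.19 and the keratin gene Krt8 by 0.09, and centring the arrays lowers each by 0.66. Because Tox and Tox2 are known from lymphoid cells, 15 lymphoid markers were read as well. The table held 12 of these, with 11 at the floor on both arrays, Ptprc, which encodes CD45, Cd3d, Cd3e, Cd3g, Cd4, Cd2, Cd79a and Ncr1 among them. Cd8a had log2 signals of 4.19 and 3.62, and the summed linear signal of the 12 was 128 in VenusHigh and 122 in VenusLow cells, where 12 genes at the floor would give 120. All 5 basal markers in the table were at the floor on both arrays. Of 5 stromal markers the highest was Dcn, with 6.01 and 4.89, and the summed signals were 110 and 72.5. Of 3 endothelial markers the highest was Kdr, with 3.78 in VenusHigh cells. Probe sets of these genes that are lower in VenusHigh cells are not in these counts.

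The genes with signals most like those of Tox2 and Tox3 were found by the distance between the pairs of log2 signals, over these 2 arrays. A short distance says that a gene had nearly the same brightness in both populations, not that transcript levels are equal. Nearest to Tox2 was Prom1, a surface protein of hormone-sensing cells, with 11.67 and 5.69, at a distance of 0.18 log2 units. Then came Tlcd4 (0.23), Fam25c (0.39), Cdo1, which encodes cysteine dioxygenase (0.47), and Tmem86a (0.47). Nearest to Tox3 was Gfpt2, an enzyme of hexosamine synthesis, with 8.18 and 4.85, at a distance of 0.017. It was followed by Bcar3, an adaptor protein studied in antiestrogen resistance (0.094), Fst, which encodes the activin inhibitor follistatin (0.24), the choline transporter-like gene Slc44a4 (0.27) and Reep6 (0.33).

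The genes next to Tox2 and Tox3 on the chromosome were mostly dim or outside the table. Of the nearest 12, the table held 7, of which 2 were bright and 0 passed the 4-fold rule, beside 2.38% of all genes and 8.58% of bright genes, so the count of 0 says nothing of these neighbours. Of the 3 protein-coding genes on each side of Tox2, the table held 5, of which 1 was bright. The bright one was Ift52, with log2 signals of 7.07 and 7.00. Jph2 and Gtsf1l, which adjoin Tox2, were at the floor on both arrays. Of the 6 around Tox3 the table held 2. Sall1, on one side of it, was at the floor on both arrays, and Aktip had 8.37 and 8.10. Chd9, on the other side, is not analysed here.

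Both genes that were higher have a GC-rich promoter window. In RefSeq (GRCm38.p6) the table of promoters holds 5 windows for Tox2, 1 for Tox3, 1 for Tox4 and 0 for Tox, each from 250 bases before to 50 bases after an annotated start. The Tox3 window has 85.3% G and C and 52 CpG dinucleotides, and 99.9% of the 32851 windows have a lower GC share, with a median of 52.7% and 7 CpG. The first Tox2 window has 77.0% and 38 CpG (97.6% of windows lower), while the windows at its most downstream starts have 53.3%. The Tox4 window, of a gene without a value here, has 65.7%. Part of the Tox2 window that lies furthest upstream and the 250 bases before the start of Tox3 are shown, since these were the family members with a difference, with the GC box GGGCGG, on either strand, in capitals. The Tox2 stretch, chr2:163202877-163203057 on the plus strand, stops before the first base of the annotated gene. It leaves out the 69 bases of its window just before the annotated start that the window is built on. The Tox3 stretch is chr8:90348253-90348502 on the minus strand. The annotated span of Tox3 reaches further upstream than this window.
Tox2: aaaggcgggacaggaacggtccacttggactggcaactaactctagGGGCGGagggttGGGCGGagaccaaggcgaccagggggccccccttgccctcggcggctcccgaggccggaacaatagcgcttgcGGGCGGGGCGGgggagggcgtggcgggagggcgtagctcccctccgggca
Tox3: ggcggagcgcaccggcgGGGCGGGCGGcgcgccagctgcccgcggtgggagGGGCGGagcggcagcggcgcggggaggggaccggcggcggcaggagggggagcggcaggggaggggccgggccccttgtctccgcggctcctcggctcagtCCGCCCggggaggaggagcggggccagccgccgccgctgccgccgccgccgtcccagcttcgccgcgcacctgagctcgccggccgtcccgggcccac
The Tox2 stretch of 181 bases holds 4 GC boxes, and all 250 bases of its window before the annotated start hold 7. The Tox3 stretch holds 4. The motif is present in 35.7% of all windows. It was found in 4 of the 5 Tox2 windows, several of which overlap, in the Tox3 window and in the Tox4 window. The half-site of the estrogen response element, AGGTCA (16.3% of all windows), the steroid receptor half-site TGTTCT (19.0%), the forkhead motif TGTTTAC (3.65%) and the T-box motif AGGTGTGA (1.28%), each searched on both strands, were found in 0 of the 7 windows. These letters are absent from the windows, and nothing follows from this for the factors. TATAAA (13.6% of all windows) was found in 2 of the Tox2 windows, which overlap and lie at its most downstream starts.

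Scaling and floor shift the differences of Tox2 and Tox3 as follows. For Tox2 on 1440156_s_at the log2 difference ranged from 4.84 with the floor at 100 to 5.81 as deposited, centring on the median gave 5.16, and quantile normalization gave 5.09. For Tox3 it ranged from 1.54 with the floor at 100 to 3.32 as deposited, and the same alternatives gave 2.66 and 2.58. Tox2 stayed at least 4-fold higher under each of these settings, and Tox3 under each but the floor at 100. Both scalings draw on a table without probe sets lower in VenusHigh cells. How far they lower a difference thus depends on the missing rows, and they are no independent check of it.

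**Figure D4:**
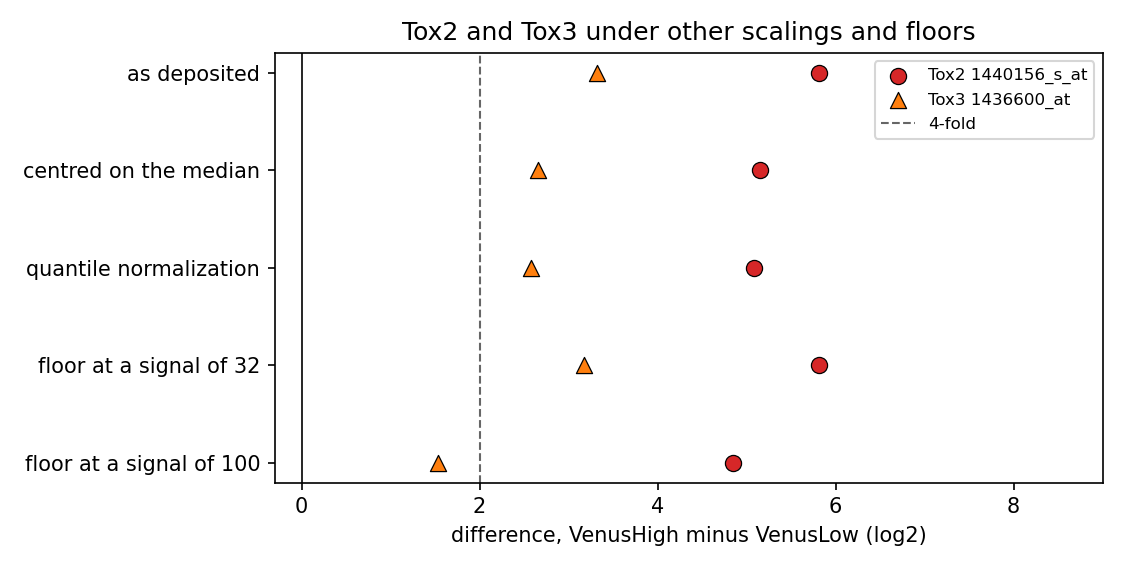
Difference between luminal VenusHigh and luminal VenusLow cells (log2, horizontal axis) of the Tox2 probe set 1440156_s_at (red circles) and the Tox3 probe set 1436600_at (orange triangles) as deposited and under other scalings and floors (vertical axis). The dashed line marks 4-fold; the Tox2 points lie between 4.84 and 5.81, and the Tox3 point at 1.54, with the floor at a signal of 100, lies left of the line.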

How the data were processed

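Luminal VenusHigh and luminal VenusLow cells were each measured on 1 Affymetrix GeneChip array from 250 ng of total RNA with an RNA integrity number above 9.4, per the labels. The authors deposited log2 values: signals were log2-transformed, after which BRB Array software normalized and centred each sample. MAS5 is named in the submitters' processing notes. Version, factor and reference are not given in the sources used here, and whether both arrays share a scale is unknown. The median over all probe sets was 3.32, the floor, on both arrays. For 5889 bright probe sets, those with a signal of at least 100 in the higher array, it was 8.21 in VenusHigh and 7.55 in VenusLow cells, so median centring lowers each difference by 0.66. No probe set in the table is lower in VenusHigh cells, so the missing rows help to set this shift. A negative value after centring therefore gives no direction. Detection calls were not used here.

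Gene names came from the annotation of the platform: 22223 probe sets carry 1 gene symbol, 602 carry several and were left unnamed, and 6513 have no entry. RefSeq (GRCm38.p6) gave current symbols by gene identifier. A value within 1e-04 of the log2 of 10 was taken as at the floor. All TOX family probe sets were named, and for each of 11 lists up to 3 members with the largest differences among the bright ones, and the 5 genes nearest to each bright TOX probe set. Other genes were named after their values were seen, and so were the chromosomal neighbours and the motifs chosen. The members and lists were chosen with earlier results of these data known.

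The alternatives tried were a floor at 32 or 100, quantile normalization, median centring, thresholds of 2-fold or 8-fold, brightness limits of 50, 200 or none, the median over the probe sets of each gene, and leaving out names that end in _a_at, _s_at or _x_at. Python 3.11.15, numpy 2.4.6, pandas 2.3.3 and matplotlib 3.10.9 were used, and the counting was run on simulated data. There, only genes with a VenusLow signal of at least 100 were raised. The run checks the counting alone and says nothing of genes dim in VenusLow cells, as Tox2 and Tox3 were.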

Additional observations from a re-analysis of the deposited data

How the results depend on the processing

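The counts of 2 TOX probe sets and 2 TOX genes at least 4-fold higher were 1 and 1 with the floor at a signal of 100, where Tox3 drops out, and 1 and 1 without names that end in _a_at, _s_at or _x_at, where Tox2 drops out. They were unchanged under the other alternatives run. The Tox2 difference on 1440156_s_at was 5.16 with median centring, 5.09 with quantile normalization and 4.84 on raising the floor to 100, and that of Tox3 was 2.66, 2.58 and 1.54. Tox2 on 1457757_at gave -0.20 after median centring and 0 with the floor at 32 or 100.

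After median centring the list medians were -0.55 for the other HMG-box genes, -0.19 for the CREB and CITED genes, -0.28 for the calcineurin, NFAT and NR4A genes, -0.17 for pan-luminal genes (0.48 as deposited) and 4.74 for hormone-sensing genes. After quantile normalization they were -0.58, -0.19 and -0.31 for the first 3 lists and 4.63 for hormone-sensing genes. Both scalings draw on a table without probe sets lower in VenusHigh cells, so the negative medians give no direction. The hormone-sensing median was 4.47 with the floor at 32, 3.65 with the floor at 100 and 5.02 with the median over each gene's probe sets, which gave 0.73 for the calcineurin list and 0.39 for the other HMG-box genes (0.10 as deposited). With a 2-fold threshold the calcineurin list had 2 genes, and without the probe sets named above the pan-luminal median was 0.83. The count of 8 hormone-sensing genes fell to 7 with the floor at 100, with an 8-fold threshold or without those probe sets. It fell to 6 with the median over each gene's probe sets. No paired analysis was possible because each population has 1 array. The lowest signals limit the Tox3 value, and no setting tells apart a difference between the populations from one between 2 arrays.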
